A study of Mus musculus with 12 samples.

Results

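The 8 genes described here are those of interferon gamma, its receptor and the chemokine arm it controls. They are Ifng, Ifngr1, Ifngr2, Irf1, Cxcl9, Cxcl10, Cxcl11 and Cxcr3, taken by symbol from the 54532 genes counted in the colon RNA of 12 mice. All 8 were found once each. Of these, 7 passed the filter on low counts and were tested among 17658 genes, while Ifng itself had only 60 counts in the 12 libraries together and did not pass. Male C57BL/6 mice, received at 6 weeks of age and kept for a week before use, were divided into 4 groups, and 3 colons of each group were sequenced. The Con group drank water without DSS. Its labels say untreated, while the methods describe gavage of the vehicle in both the Con and the DSS group. The DSS group had 3% (w/v) dextran sulfate sodium (DSS), a polymer that injures the colon epithelium, in the drinking water for 5 days. The UA+DSS group had the same DSS and also ursolic acid (UA), a triterpenoid of apple peel and many herbs, given by gavage at 200 mg/kg starting 1 day before DSS. The DSS+UA group had the same DSS and UA dose, with UA from 3 days after DSS began. UA lasted 7 days in the UA+DSS group and 4 days in the DSS+UA group by the methods, and 9 and 5 days by the discussion. No group received UA without DSS. Each library is named here by its group and replicate number, so DSS 2 is the second replicate of the DSS group.

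Interferon gamma is a cytokine made mainly by T cells, NK cells and other innate lymphocytes. It binds a receptor of the chains IFNGR1 and IFNGR2, which signal through JAK1 and JAK2, and among the first genes switched on is Irf1, itself a transcription factor. Cxcl9, Cxcl10 and Cxcl11 encode chemokines that respond to interferon gamma and attract cells bearing the receptor CXCR3, chiefly activated T cells and NK cells. Those cells can make more interferon gamma, so the axis can feed itself. In the inflamed colon it is known from T cell driven disease, while acute DSS injury is dominated by innate cells. In C57BL/6 mice the Cxcl11 gene carries a frameshift and gives no working chemokine, which leaves CXCL9 and CXCL10 as the ligands.

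The 3 chemokine genes lie side by side on the minus strand of chromosome 5 (GRCm38), within 44139 bases. Cxcl9 (ENSMUSG00000029417) lies at chr5:92321347-92328079, Cxcl10 (ENSMUSG00000034855) at chr5:92346638-92348889 and Cxcl11 (ENSMUSG00000060183) at chr5:92359544-92365485. The annotation (GENCODE M21) calls Cxcl11 a polymorphic pseudogene, and 1582 of its exonic bases overlap genes on the other strand, Art3 and Gm2673. The use of strand in counting is not given in the sources used here, so the Cxcl11 counts are uncertain. Cxcl10 shares 133 exonic bases with Art3 in the same way. Ifng (ENSMUSG00000055170) lies at chr10:118441046-118445892 and shares 336 exonic bases with Gm49751 on its own strand, and Ifngr1 (ENSMUSG00000020009) lies on the same chromosome at chr10:19591949-19610229. Ifngr2 (ENSMUSG00000022965) is at chr16:91547072-91565623, Irf1 (ENSMUSG00000018899) at chr11:53770014-53778374 with 135 exonic bases shared with Gm17334 on the other strand, and Cxcr3 (ENSMUSG00000050232) at chrX:101731535-101734269 on the minus strand.

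The 250 bases before the start of Irf1 and of the neighbours Cxcl9 and Cxcl10 are printed because Irf1 is the early target and because Cxcl9 and Cxcl10, although neighbours, had their highest level in different libraries (values below in the text on each gene). The sequences are RefSeq's for GRCm38.p6, written 5′ to 3′ on the strand of the gene, and capitals mark a match to an interferon motif, GAS or ISRE-like. Irf1 is on the plus strand at chr11:53769764-53770013, Cxcl9 on the minus strand at chr5:92328080-92328329 and Cxcl10 on the minus strand at chr5:92348890-92349139.
Irf1: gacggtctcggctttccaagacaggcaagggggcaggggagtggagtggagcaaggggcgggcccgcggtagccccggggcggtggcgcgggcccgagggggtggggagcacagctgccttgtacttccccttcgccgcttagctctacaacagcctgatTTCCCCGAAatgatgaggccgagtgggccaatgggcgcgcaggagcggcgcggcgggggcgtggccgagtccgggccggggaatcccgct
Cxcl9: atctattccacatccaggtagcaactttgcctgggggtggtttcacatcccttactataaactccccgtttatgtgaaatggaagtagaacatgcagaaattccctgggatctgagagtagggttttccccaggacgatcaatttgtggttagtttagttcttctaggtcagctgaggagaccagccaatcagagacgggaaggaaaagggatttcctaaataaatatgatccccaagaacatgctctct
Cxcl10: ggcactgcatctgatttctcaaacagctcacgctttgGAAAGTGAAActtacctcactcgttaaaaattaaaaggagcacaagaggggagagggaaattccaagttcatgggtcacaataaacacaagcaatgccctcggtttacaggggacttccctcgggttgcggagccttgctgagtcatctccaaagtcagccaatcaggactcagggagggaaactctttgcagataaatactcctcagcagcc
The motifs searched on both strands were the gamma-activated site TTCNNNGAA (GAS) and an interferon response element (ISRE-like) of GAAA, 2 bases of any kind and GAAA. The TATA box letters TATAAA were searched in the same way and are not in capitals. No matches overlapped in these windows. The Irf1 window held a GAS match, 90 to 82 bases before the start, as did 7.02% of 32851 promoter windows of the same length. The Cxcl10 window held an ISRE-like match, 213 to 204 bases before the start, as did 2.98% of the windows. The Cxcl9 window held neither, which says only that these letters are not within this window, and it held TATAAA 195 to 190 bases before the start, as did 12.4% of the windows on either strand. RefSeq gives a second start for Irf1, whose window held neither motif.

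Total counts were 15566216 to 19498383 per library (median 18569670), and the tested genes held 99.8% of them. Values are CPM, counts scaled to a common library size after TMM normalization, and adjusted p is from edgeR's quasi-likelihood test over the 17658 genes, with a call under 0.05. The p-values measure the spread between these libraries. The libraries also differed in things other than treatment. DSS 3 held pancreas transcripts, with a summed level of 9979 CPM for 4 pancreas markers against 30.2 to 554 CPM in the other libraries. A score of Hox genes that mark the position along the colon (distal minus proximal, log2) was -5.70 to -4.16 in UA+DSS, 0.366 to 3.10 in DSS, 4.11 to 5.06 in DSS+UA and -3.03 to 5.53 in Con, with no overlap among the 3 groups given DSS or between UA+DSS and Con, so that position and group cannot be told apart in the comparisons among these, DSS+UA against DSS included. DSS 2 stood apart in neutrophil markers, with a sum of 17231 CPM for 6 genes against 863 and 943 in the other DSS libraries, 9.26 to 114 in Con, 26.6 to 116 in UA+DSS and 397 to 998 in DSS+UA. Of these 6 genes 5 rose in DSS against Con, where 13.9% of all tested genes were raised. In UA+DSS against DSS 6 fell, where 10.5% of all genes were lowered. In DSS+UA against DSS 0 passed (7.54% of all genes), with 5 at an unadjusted p under 0.05 (29.9% of all genes). Epithelial markers were present in each library, with a sum of 4809 to 13488 CPM for 7 genes.

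The ligand gene, Ifng, was near the limit of detection in every group. Its counts were 9, 3 and 1 in Con 1 to 3, 3, 7 and 2 in the DSS libraries, 12, 3 and 0 in UA+DSS and 1, 15 and 4 in DSS+UA. The count of 0 in UA+DSS 3 allows up to 0.160 CPM (3 counts, counting error only). DSS+UA 2 with 0.928 CPM and UA+DSS 1 with 0.770 CPM were the highest libraries, and all 4 groups overlapped. Mean levels were 0.228 ± 0.213 CPM in Con, 0.200 ± 0.132 in DSS, 0.319 ± 0.401 in UA+DSS and 0.401 ± 0.464 in DSS+UA (SD, n = 3). The exact permutation test, two-sided, gave p of 0.6 to 0.8 in the 6 comparisons (all adjusted p = 0.8), and with 3 libraries against 3 it cannot go below 0.1. Without the filter edgeR put Ifng in DSS against Con at a log2 fold change of -0.18 with a 95% interval from -2.61 to 2.26, so a change of several fold in either direction was not detectable at this depth. In bulk tissue, fewer cells of a type and less RNA per cell cannot be told apart, for Ifng and for each gene below.

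The receptor genes were the steadiest of the 8. Ifngr1, the ligand-binding chain, had 250.01, 283 and 225 CPM in Con, 236, 227 and 251 in DSS, 269, 314 and 288 in UA+DSS and 209, 371 and 256 in DSS+UA. Every UA+DSS library lay above every DSS library, by a small margin, and the DSS+UA group spanned all others. In UA+DSS against DSS 42.8% of all tested genes had groups apart in either direction. In DSS against Con the log2 fold change was -0.09 (SE 0.20, 95% interval -0.54 to 0.36, adjusted p = 0.774), and in UA+DSS against DSS it was 0.29 (SE 0.20, adjusted p = 0.356). The interval in DSS against Con bounds the fold between 0.690 and 1.29.

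Ifngr2, the chain whose amount is known to limit the response of T cells to interferon gamma, showed a similar order with a wider step. It had 111, 165 and 133 CPM in Con, 109.9, 161 and 131 in DSS, 179, 235 and 199.97 in UA+DSS and 120.0, 259 and 200.4 in DSS+UA. Con and DSS were level, and the 3 UA+DSS libraries lay above all 6 libraries of Con and DSS. Of all tested genes, 42.8% had groups apart in UA+DSS against DSS and 20.6% in UA+DSS against Con. The log2 fold change was -0.03 (SE 0.27, adjusted p = 0.950) in DSS against Con, 0.62 (SE 0.27, unadjusted p = 0.0425, adjusted p = 0.130) in UA+DSS against DSS and 0.59 (SE 0.27, adjusted p = 0.415) in UA+DSS against Con. None of these passed the threshold. With the Hox position score in the fit, the value for UA+DSS against DSS was 0.24 (adjusted p = 0.745), over 1.5 times smaller. With a block for the replicate number in the edgeR fit it was 0.63 and passed (adjusted p = 0.0318), though the numbers showed no pairing.

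Irf1, the early target, varied more than the receptor. It had 140.2, 194 and 155 CPM in Con, 95.2, 185 and 67.2 in DSS, 225, 148 and 114 in UA+DSS and 88.3, 322 and 119 in DSS+UA. The groups overlapped in all 6 comparisons, and within each group treated with DSS the highest library stood 1.97 to 3.65 times above the lowest. The mean was 163 ± 28.0 CPM in Con, 116 ± 61.3 in DSS, 162 ± 56.9 in UA+DSS and 176 ± 127 in DSS+UA (SD, n = 3). The log2 fold change in DSS against Con was -0.50 (SE 0.49, adjusted p = 0.474). It was 0.49 (SE 0.49, adjusted p = 0.525) in UA+DSS against DSS and 0.61 (SE 0.49, adjusted p = 0.434) in DSS+UA against DSS. Single libraries moved these values: the first was -1.01 without DSS 2 and -0.22 without DSS 3, the second 0.18 without UA+DSS 1 and 0.995 without DSS 2, and the third -0.20 without DSS+UA 2 and 1.13 without DSS 2.

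**Figure D1:**
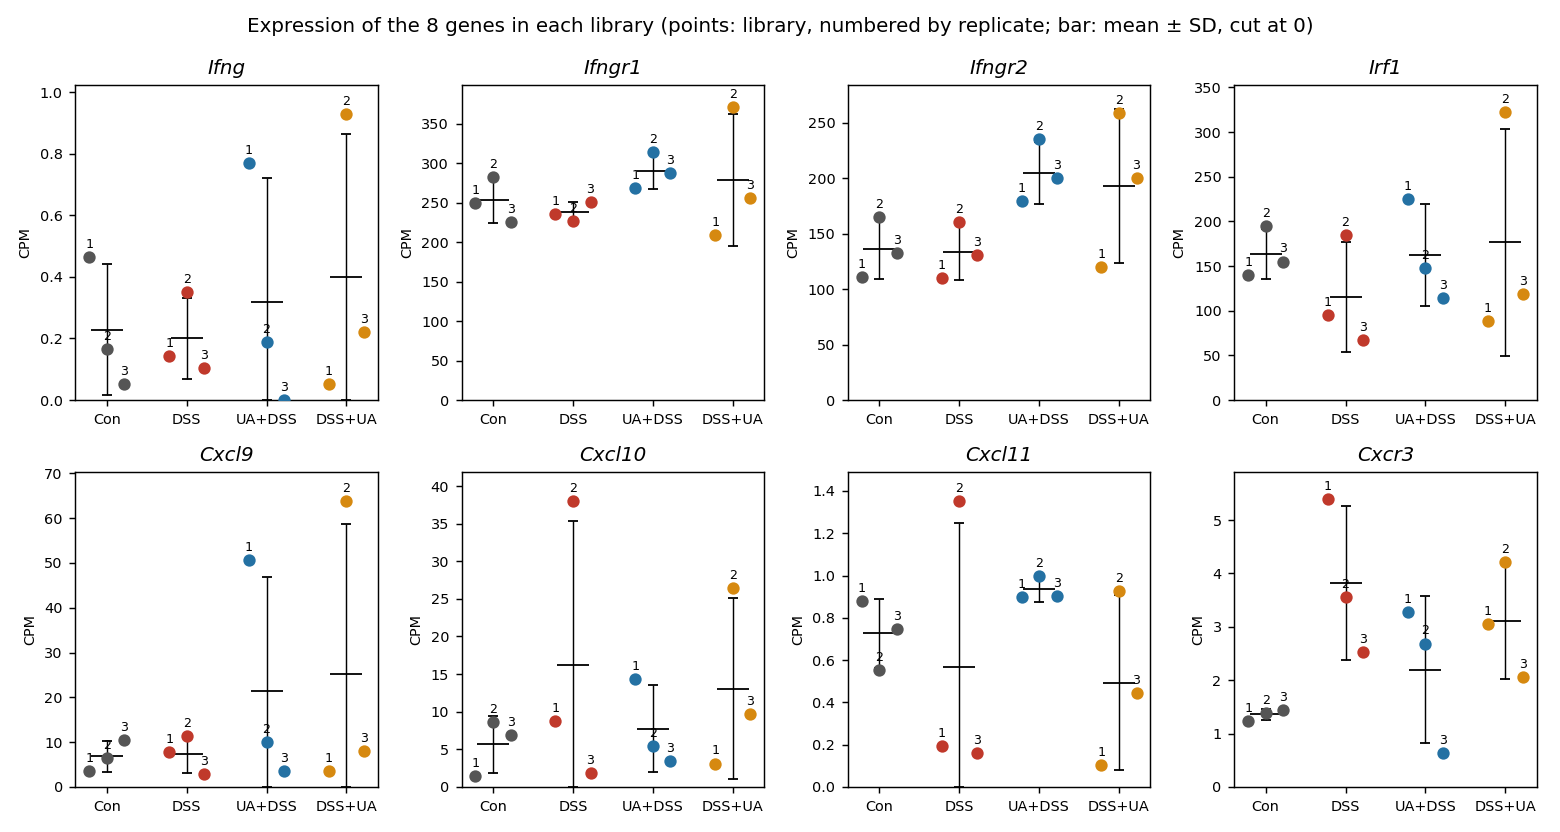
CPM of each of the 8 genes (y axis, linear, from 0) in the 12 libraries by group (x axis). Points are libraries with their replicate number, horizontal bars are group means and whiskers are the SD (n = 3), cut at 0. Ifngr1 and Ifngr2 stay within 1.78-fold and 2.36-fold over all libraries, Cxcl9 is high in UA+DSS 1 and DSS+UA 2, Cxcl10 is highest in DSS 2, and Cxcr3 is lowest and tightest in Con among the group means.

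Cxcl9, which encodes a chemokine induced almost solely by interferon gamma, was low in most libraries and high in a pair of them. Its levels were 3.62, 6.38 and 10.4 CPM in Con, 7.70, 11.3 and 2.85 in DSS, 50.6, 9.93 and 3.56 in UA+DSS and 3.48, 63.8 and 7.98 in DSS+UA. UA+DSS 1 and DSS+UA 2 stood apart, with 788 and 1032 counts, and the other 10 libraries held 2.85 to 11.3 CPM. In DSS against Con the log2 fold change was 0.10 (SE 1.12, 95% interval -2.37 to 2.57, adjusted p = 0.955). It was 1.55 (SE 1.13, adjusted p = 0.367) in UA+DSS against DSS and 1.78 (SE 1.14, adjusted p = 0.318) in DSS+UA against DSS. Each of the latter values rested on 1 library: without UA+DSS 1 the first was -0.11, and without DSS+UA 2 the second was -0.39.

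Cxcl10, which answers to type I interferons and NF-κB as well as to interferon gamma, had its highest level in another library. It had 1.40, 8.65 and 6.90 CPM in Con, 8.76, 38.0 and 1.85 in DSS, 14.4, 5.44 and 3.46 in UA+DSS and 3.11, 26.5 and 9.65 in DSS+UA. DSS 2 was the highest and Con 1 the lowest, 27.2-fold apart, and all groups overlapped. The log2 fold change in DSS against Con was 1.52 (SE 1.09, 95% interval -0.88 to 3.92, adjusted p = 0.315), and without DSS 2 it was -0.08. It was -1.07 (SE 1.07, adjusted p = 0.524) in UA+DSS against DSS, where it was 0.54 without DSS 2, and -0.31 (SE 1.06, adjusted p = 0.867) in DSS+UA against DSS, where it was 1.31 without DSS 2. That library was also the one with the most neutrophil markers, whose part in the level of Cxcl10 was not tested.

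Cxcl11, the pseudogene of this strain, was expressed at the edge of detection. It had 0.879, 0.555 and 0.749 CPM in Con, 0.192, 1.35 and 0.158 in DSS, 0.898, 1.000 and 0.904 in UA+DSS and 0.105, 0.928 and 0.444 in DSS+UA, from 2 to 27 counts per library. The UA+DSS libraries lay close together and just above Con, with 14, 16 and 17 counts against 17, 10 and 14. The gap, 0.898 against 0.879 CPM, is within counting error. DSS and DSS+UA each held 1 library near 1 CPM and others far below. The log2 fold change was -0.35 (SE 0.80, adjusted p = 0.763) in DSS against Con and 0.71 (SE 0.79, adjusted p = 0.570) in UA+DSS against DSS. Without DSS 2 these were -2.01 and 2.36, with adjusted p of at least 0.073 in all fits with 1 library left out.

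The balance of the neighbours Cxcl9 and Cxcl10 within a library differed between libraries. Cxcl9 counts per Cxcl10 count were 2.59, 0.737 and 1.51 in Con, 0.879, 0.298 and 1.54 in DSS, 3.52, 1.83 and 1.03 in UA+DSS and 1.12, 2.41 and 0.828 in DSS+UA. UA+DSS 1 was the highest and DSS 2 the lowest, and DSS overlapped every other group. The mean log2 ratio was 1.35 higher in UA+DSS than in DSS (exact permutation test, two-sided, p = 0.2) and the difference was -0.95 in DSS against Con (exact p = 0.5). No adjusted p over the 6 comparisons was below 0.84, and the smallest p possible was 0.1.

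Cxcr3, the receptor of these chemokines and a marker of activated T cells and NK cells, was the only gene of the 8 whose Con and DSS libraries did not overlap. It had 1.24, 1.39 and 1.44 CPM in Con, 5.39, 3.56 and 2.54 in DSS, 3.27, 2.69 and 0.638 in UA+DSS and 3.05, 4.21 and 2.05 in DSS+UA. Every DSS library and every DSS+UA library lay above every Con library, whereas the UA+DSS group reached from below Con into the DSS range. Groups were apart, in either direction, for 41.3% of all tested genes in DSS against Con and 38.9% in DSS+UA against Con. The log2 fold change in DSS against Con was 1.49 (SE 0.53, 95% interval 0.33 to 2.66, fold 2.81, unadjusted p = 0.0167, adjusted p = 0.0586), just short of the threshold. Its adjusted p ranged from 0.0208 to 0.182 over 20 alternatives, and it passed in 2 of them, DESeq2 (adjusted p = 0.0208) and the fit without UA+DSS 3 (adjusted p = 0.0221). The log2 fold change was -0.81 (SE 0.52, adjusted p = 0.302) in UA+DSS against DSS, -0.30 (SE 0.51, adjusted p = 0.721) in DSS+UA against DSS and 1.19 (SE 0.53, unadjusted p = 0.0465, adjusted p = 0.132) in DSS+UA against Con. In UA+DSS against DSS it was -1.21 without UA+DSS 1 and -0.36 without UA+DSS 3.

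Cxcr3 was also set against the CD3 chains of the T cell receptor complex in the same library, a ratio chosen after the values were seen and not tested. Per 100 counts of Cd3d, Cd3e and Cd3g together there were 26.1, 28.7 and 18.9 counts of Cxcr3 in Con, 18.3, 10.2 and 31.8 in DSS, 11.6, 12.9 and 8.05 in UA+DSS and 16.2, 14.98 and 29.1 in DSS+UA. The mean ratio of the DSS group (20.1 ± 10.9, SD, n = 3) was not above that of Con (24.6 ± 5.10), although its Cxcr3 level was. The UA+DSS libraries had the lowest ratios as a group, below all Con libraries, and overlapped DSS through DSS 2. CXCR3 is also carried by NK cells, which this ratio does not count.

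**Figure D2:**
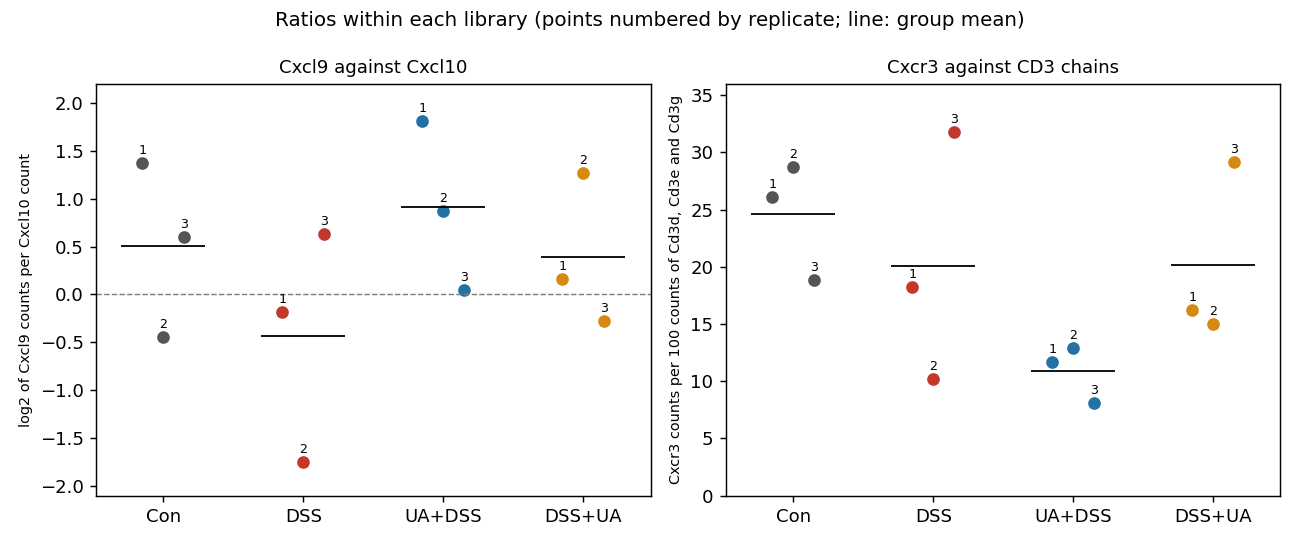
Ratios within each of the 12 libraries by group (x axis), with points numbered by replicate and lines at the group means. The left panel gives log2 of Cxcl9 counts per Cxcl10 count, lowest in DSS 2 and highest in UA+DSS 1. The right panel gives Cxcr3 counts per 100 counts of Cd3d, Cd3e and Cd3g, which reach 31.8 in DSS 3 and stay at or below 12.9 in UA+DSS.

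Across the comparisons, edgeR called 0 of the 7 tested genes in DSS against Con, where 26.5% of all tested genes were called. It called 0 of 7 in UA+DSS against DSS (18.7% of all genes), DSS+UA against DSS (7.54%), UA+DSS against Con (0.00566%), DSS+UA against Con (18.1%) and DSS+UA against UA+DSS (16.8%). At an unadjusted p under 0.05 edgeR found 1 gene in DSS against Con (Cxcr3, 40.6% of all genes), 1 in UA+DSS against DSS (Ifngr2, 34.6%) and 1 in DSS+UA against Con (Cxcr3, 36% of all genes). It found 0 in DSS+UA against DSS (29.9%), UA+DSS against Con (12.1%) and DSS+UA against UA+DSS (33.8%). DESeq2 called 1, Cxcr3 in DSS against Con, and 0 in the other 5, and limma-voom called 0 in all 6. At an unadjusted p under 0.05 DESeq2 found 1, 1, 0, 1, 1 and 0 genes, and limma-voom 1, 1, 0, 1, 0 and 0, in the order of the comparisons above.

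Some of the genes had groups that did not overlap. In DSS against Con 1 of the 7 genes (Cxcr3) had groups apart, against 41.3% of all tested genes. For UA+DSS against DSS these were 2 (Ifngr1 and Ifngr2, both higher in UA+DSS) against 42.8%, and in UA+DSS against Con 2 (Ifngr2 and Cxcl11) against 20.6%. The gap for Cxcl11 was 0.898 CPM in UA+DSS 1 (14 counts) against 0.879 in Con 1 (17 counts), within counting error. In DSS+UA against Con it was 1 (Cxcr3) against 38.9%, and in DSS+UA against DSS and DSS+UA against UA+DSS 0, against 34.7% and 45.3%. The median log2 fold change of the 7 genes was -0.03 in DSS against Con, 0.49 in UA+DSS against DSS and 0.23 in DSS+UA against DSS, beside -0.03, -0.02 and 0.02 over all tested genes. In DSS against Con the interval of Cxcl9 spans several fold in both directions, and those of the receptor genes stay within about 1 log2 unit of 0.

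**Figure D3:**
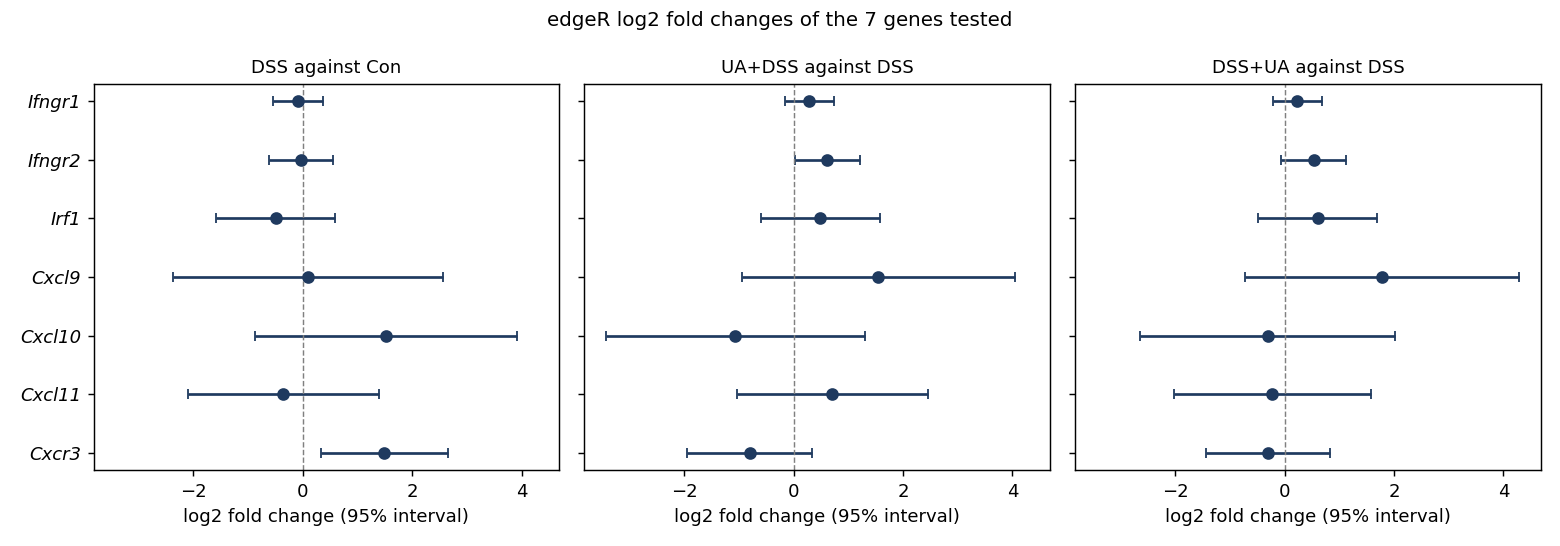
Log2 fold changes (x axis) of the 7 tested genes (y axis) in DSS against Con, UA+DSS against DSS and DSS+UA against DSS, from edgeR. Points are estimates and whiskers 95% intervals, and the dashed line marks 0. Only the intervals of Cxcr3 in DSS against Con and Ifngr2 in UA+DSS against DSS exclude 0, with adjusted p of 0.0586 and 0.130.

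Levels of the 8 genes were compared per length of exon. Mean CPM per kilobase over the 12 libraries was 93.1 for Ifngr1, 44.3 for Ifngr2 and 38.8 for Irf1, then 5.02 for Cxcl9, 4.74 for Cxcl10 and 1.51 for Cxcr3, and last 0.222 for Ifng and 0.179 for Cxcl11. The libraries' ranges of Ifngr1 and Ifngr2 were apart on this scale, while those of every other pair of neighbours in the order overlapped. The spread followed another order. Over the libraries the highest CPM was 1.78 times the lowest for Ifngr1, 2.36 for Ifngr2, 4.79 for Irf1, 8.44 for Cxcr3, 12.8 for Cxcl11, 22.4 for Cxcl9 and 27.2 for Cxcl10.

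The same libraries tended to be the highest of their group for several of these genes. DSS+UA 2 held the highest level of its group for 8 of 8, as it did for 37.6% of all tested genes. DSS 2 held it for 6 of 8 (34.8% of all genes), UA+DSS 1 for 5 of 8 (34.7%) and Con 2 for 4 of 8 (27.8%). Among 24 other genes known to respond to interferon gamma, DSS+UA 2 was the highest of its group for 24 and UA+DSS 1 for 20, while in DSS it was DSS 1 for 14 and DSS 2 for 9. The list holds the guanylate-binding proteins and immunity-related GTPases (Gbp2, Igtp, Iigp1), antigen processing genes (Tap1, Psmb8, Psmb9) and Ido1, Nos2, Cd274 and Icam1. Its summed level reached 3294 CPM in DSS+UA 2 and 2367 in UA+DSS 1, where the others of those groups held 1133 to 1699.6.

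Genes of the type I interferon response peaked in other libraries of DSS and UA+DSS than most of the 8 genes did. All 12 of that list, among them Isg15, Ifit1, Mx1, Oasl2 and Irf7, were highest in Con 2 within Con, in DSS 1 within DSS and in UA+DSS 2 within UA+DSS. In DSS+UA 8 of them were highest in DSS+UA 2, the library that was also the highest for the 8 genes. Their summed level was 1371 and 1903 CPM in Con 3 and Con 2 but 186 in Con 1, which was also the library with the least Cxcl10 (1.40 CPM).

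Lymphocyte markers moved with part of this pattern. The sum of 16 T cell and NK cell markers was 26.0 to 52.9 CPM in Con, 65.4 to 210.0 in DSS, 56.9 to 310.3 in UA+DSS and 51.0 to 204 in DSS+UA. UA+DSS 1 (310.3 CPM) and DSS+UA 2 (204 CPM), the libraries with the most Cxcl9 and Ifng, were the highest of their groups in this sum as well, and DSS 2 (210.0 CPM) was the highest of DSS. In UA+DSS 1 the cytotoxic granule genes Gzma (96.9 CPM) and Gzmb (75.8 CPM) made up much of the sum. The sum therefore does not rank the libraries by their share of T cells and NK cells. The NK receptor gene Ncr1 stayed at 0.0532 to 0.750 CPM in every library. The macrophage and monocyte sum, over 9 markers, was also highest in UA+DSS 1 (594 CPM) and DSS+UA 2 (995 CPM) of their groups, but in DSS it was highest in DSS 1 (1775 CPM), and the sum of 6 dendritic cell markers was highest in DSS 2 (52.4 CPM), DSS+UA 2 (37.5 CPM) and UA+DSS 1 (34.1 CPM) of their groups, with 12.5 to 42.5 CPM in the other libraries. The part of these cell markers in the levels of Cxcl9, Cxcl10 and Ifng was not tested.

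**Figure D4:**
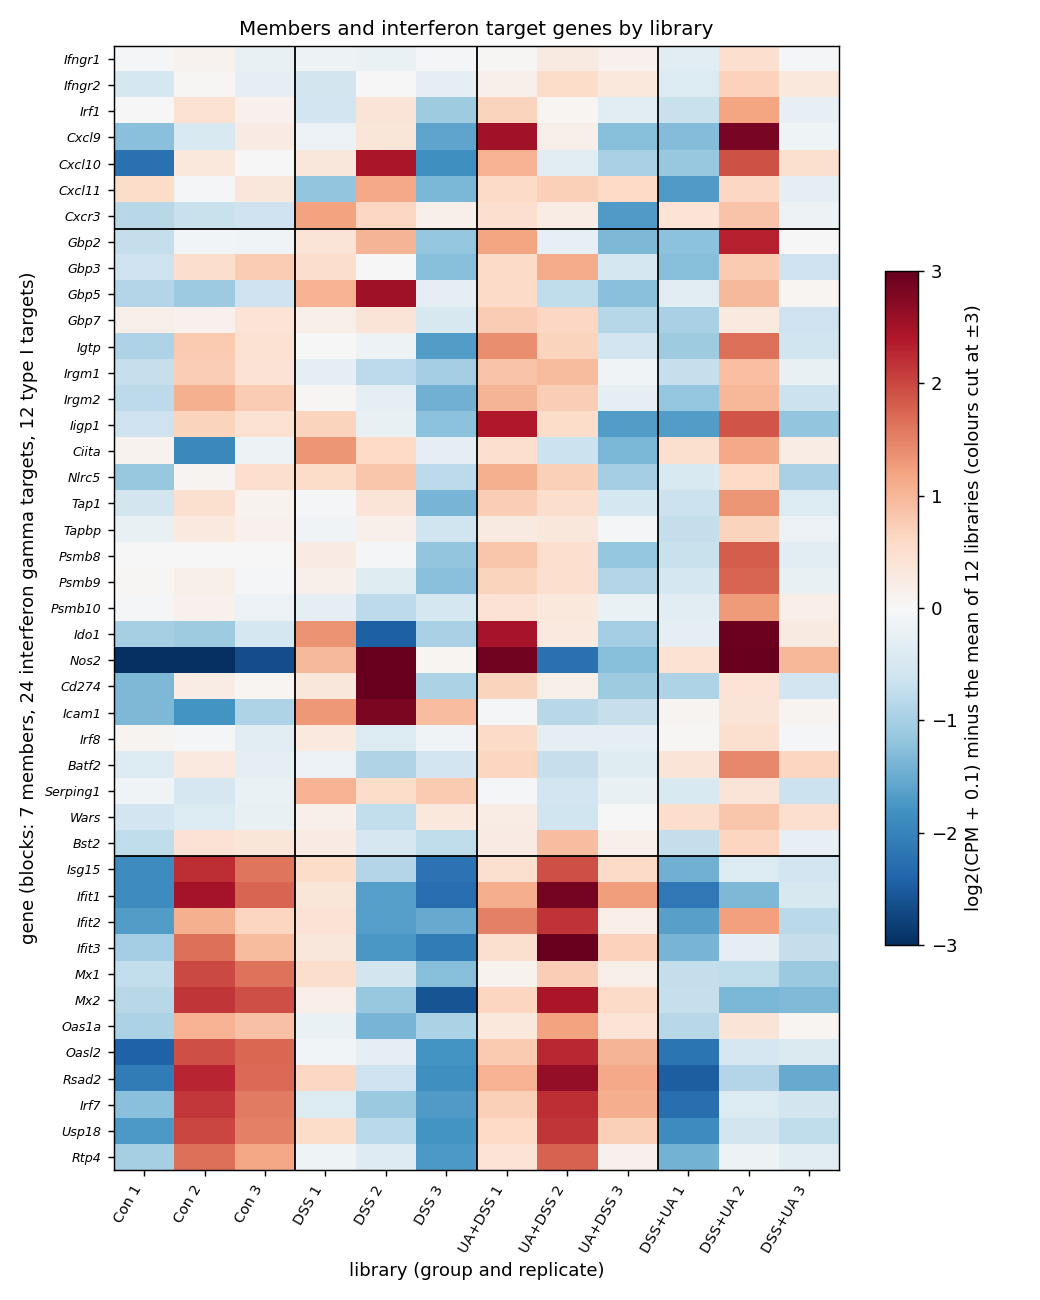
Log2(CPM + 0.1) of each gene (y axis) minus its mean over the 12 libraries (x axis), with colours cut at ±3. The blocks from the top are the 7 tested genes, 24 interferon gamma target genes and 12 type I interferon target genes. Many rows of the first 2 blocks are reddest in UA+DSS 1 or DSS+UA 2. Rows that go otherwise include Cxcl10, Cxcl11 and Nos2, highest in DSS 2, and Cxcr3, highest in DSS 1. The third block is reddest in Con 2, Con 3 and UA+DSS 2.

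Genes that act upstream of Ifng were among those that changed in DSS against Con. Of 14 genes that drive interferon gamma production, 12 were tested (Il12b and Il12rb2 did not pass the filter), of which 6 rose and 1 fell, beside 13.9% raised and 12.6% lowered over all genes. Runx3 and Stat4, transcription factors of type 1 lymphocytes, rose with log2 fold changes of 3.14 (SE 0.48, adjusted p = 0.00275) and 3.14 (SE 0.58, adjusted p = 0.00480). Il27, whose product pairs with EBI3 to form interleukin 27, had no count in any Con library and 0.770, 3.26 and 0.423 CPM in DSS (adjusted p = 0.00894). Il18rap, Il12a and Ebi3 rose by 4.21, 2.91 and 2.80 on the log2 scale, and all of these were highest in DSS 2, where Il18rap reached 93.7 CPM against 8.03 and 8.98 in the other DSS libraries. DSS 2 was also the library with the most neutrophil markers, whose part in these levels was not tested. Without DSS 2, Il12a and Ebi3 no longer passed (adjusted p = 0.188 and 0.120). These genes also failed without Con 1 or Con 2, with limma-voom and with a block for the replicate number. Il15 fell by 1.48 (adjusted p = 0.0499) and passed in 9 of 20 alternatives, and Tbx21, the master regulator of type 1 T cells, had a log2 fold change of 1.08 that did not pass (adjusted p = 0.196). The same held for Il18, at -0.98 (adjusted p = 0.197). Leaving out a library gave 4 to 7 raised genes, with 4 without Con 1, Con 2 or DSS 2 and 6 without DSS 3. The count was 2 in a fit of only the pair of groups. It was also 2 with at least 10 counts required in every sample, which leaves out low-count genes. The median of the list was 2.37.

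With UA given before DSS, 3 of these 12 genes fell and 0 rose in UA+DSS against DSS, and in DSS+UA against DSS 0 passed. The background was 10.5% lowered and 8.21% raised in the first and 5% lowered and 2.54% raised in the second. The genes that fell were Runx3 (log2 fold change -1.90, adjusted p = 0.0196), Il18rap (-3.62, adjusted p = 0.0242) and Ebi3 (-2.59, adjusted p = 0.0406). In the second, 7 of 12 had an unadjusted p under 0.05 (29.9% of all genes), and DESeq2 called 3 (3126 genes overall) and limma-voom 1 (1152 genes overall). The DESeq2 calls were Ebi3 and Runx3, both lower, and Il18, which was higher (1.39, adjusted p = 0.0494). The limma-voom call was Runx3, lower. The median was -1.56 and -1.20, and with the Hox position score in the fit none passed in the first comparison. The count there was also 0 without UA+DSS 2 or UA+DSS 3, 1 without DSS 2 and 5 without DSS 3. It was 0 in a fit of only the pair of groups. With limma-voom, without the filter or with a block for the replicate number it was 1. In the edgeR fit without DSS 2, Il18rap (-1.51, adjusted p = 0.0592) and Ebi3 (-1.10, adjusted p = 0.222) no longer passed.

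Part of the signalling chain changed with DSS. In DSS against Con 4 of 8 rose and 0 fell, beside 13.9% raised and 12.6% lowered over all genes, with a median of 0.76. All 8 were highest in DSS 2 within DSS, the library with the most neutrophil markers. Jak1, a kinase shared by many cytokine receptors, rose by 0.88 (SE 0.16, adjusted p = 0.00431), Socs3, a feedback inhibitor mainly of the interleukin 6 family, by 4.95 (SE 0.71, adjusted p = 0.00242), the phosphatase gene Ptpn6 by 1.46 (adjusted p = 0.0165) and Ptpn2, another phosphatase gene, by 0.45 (adjusted p = 0.0402, passing in 9 of 20 alternatives). The count was 2 without Con 2 or Con 3. Jak2 (0.67, adjusted p = 0.0668) and Socs1, the feedback inhibitor induced by interferon gamma (0.86, adjusted p = 0.348), did not pass, though Jak2 passed in 4 of 20 alternatives (DESeq2, library size scaling, the Hox position score and without DSS 1, with adjusted p from 0.0214 to 0.0463). Socs1 was highest in DSS+UA 2 at 31.4 CPM, with 3.72 to 13.8 CPM in the others. Jak1 (-0.51, adjusted p = 0.0441), Socs3 (-3.08, adjusted p = 0.0147) and Ptpn6 (-1.25, adjusted p = 0.0384) fell in UA+DSS against DSS (10.5% of all genes were lowered). Leaving out a library gave 0 to 3 of them, with 0 without UA+DSS 2 or UA+DSS 3. The count was also 0 in a fit of only the pair of groups and with the Hox position score. Jak1 and Ptpn6 did not pass with limma-voom, without the filter or in most fits with 1 library left out. In DSS+UA against DSS 0 of 8 passed, with 3 at an unadjusted p under 0.05 (29.9% of all genes), 2 called by DESeq2 (3126 genes overall) and 0 by limma-voom.

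Few of the interferon gamma targets changed with DSS. Of 24, 4 rose and 0 fell in DSS against Con (16.7%, near the 13.9% raised over all genes), and the median was -0.19. The 4 were Icam1, an adhesion molecule (log2 fold change 3.25, SE 0.47, adjusted p = 0.00243), Serping1, the C1 inhibitor (1.08, SE 0.26, adjusted p = 0.0141), Nos2, the inducible nitric oxide synthase (7.27, SE 2.05, adjusted p = 0.0263), and Gbp5 (2.41, SE 0.70, adjusted p = 0.0284). Icam1 and Nos2 also respond to NF-κB. Nos2 reached 584 CPM in DSS 2, the library with the most neutrophil markers, with 30.9 and 16.2 CPM in the other DSS libraries and 0.621 to 2.41 in Con. Nos2 and Gbp5 no longer passed without DSS 2 (adjusted p = 0.106 and 0.105). These genes also failed without Con 1, Con 2 or Con 3, with limma-voom, without the filter and with a block for the replicate number. The count was 1 without Con 2 and 2 without Con 1, Con 3 or DSS 2. Icam1 and Serping1 fell in UA+DSS against DSS (-2.41, adjusted p = 0.0116, and -1.09, adjusted p = 0.0200) and in DSS+UA against DSS (-1.74, adjusted p = 0.0431, and -0.98, adjusted p = 0.0469). In UA+DSS against DSS, Icam1 passed in 18 of 20 alternatives (not without UA+DSS 2) and Serping1 in 16 (not without DSS 1, UA+DSS 2 or UA+DSS 3). In DSS+UA against DSS each passed in only 7 of 20, and the count of lowered targets was 0 without Con 2, DSS 2, DSS+UA 1, DSS+UA 3 or any 1 of the UA+DSS libraries and 1 without Con 3, DSS 1, DSS 3 or DSS+UA 2. The shares lowered over all genes were 10.5% and 5%. The other 22 did not pass with edgeR in either, whereas DESeq2 also called Irgm1 higher (1.30, adjusted p = 0.0289) and Gbp5 lower (-1.84, adjusted p = 0.0211) in UA+DSS against DSS, and Psmb10 (1.06, adjusted p = 0.0278) and Batf2 (1.41, adjusted p = 0.00685) higher in DSS+UA against DSS. The edgeR medians of 0.43 and 0.38 had the sign opposite to these falls. Both comparisons share the DSS libraries.

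None of the 12 type I interferon targets passed with edgeR in DSS against Con, although all 12 had negative log2 fold changes, with a median of -1.70. At an unadjusted p under 0.05 there were 6 of 12, beside 40.6% of all genes. DESeq2 called 5 (5712 genes overall) and limma-voom 0, and edgeR called 8 without Con 1. Irf7, the leading gene, had a log2 fold change of -2.33 (adjusted p = 0.0501), with 60.2, 620.4 and 419 CPM in Con and 108, 66.4 and 44.2 in DSS. All 12 were higher in UA+DSS than in DSS (median 2.06), where edgeR called 0. In that comparison 8 had an unadjusted p under 0.05 (34.6% of all genes), DESeq2 called 8 (4497 genes overall) and limma-voom 0. Their groups were apart for 9 of 12, against 42.8% of all tested genes. The summed level of the 12 divided the libraries by the sign of the Hox position score. Con 2, Con 3 and the UA+DSS libraries, with scores of -5.70 to -1.83, held 836 to 2241 CPM. Con 1 (score 5.53) and all DSS and DSS+UA libraries, with positive scores, held 158 to 515 CPM. The part of position in these levels was not tested. Cxcl10 had a log2 fold change of -1.07 in UA+DSS against DSS, which did not pass and was 0.54 without DSS 2, so its direction there was not settled.

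Of 6 other genes of the chemokine axis, 4 rose in DSS against Con, where 13.9% of all genes were raised. They were Pf4, a platelet and myeloid chemokine that can bind CXCR3 (log2 fold change 2.01, adjusted p = 0.0128), the chemokine-binding receptors Ackr1 of venules (1.96, adjusted p = 0.00502) and Ackr3 (0.99, adjusted p = 0.00413), and Cxcl16, the ligand of CXCR6 (1.97, adjusted p = 0.00772). The count stayed at 4 with each library left out in turn. Pf4 (-1.95, adjusted p = 0.0206), Ackr1 (-1.35, adjusted p = 0.0279) and Ackr3 (-1.61, adjusted p = 0.00398) fell in UA+DSS against DSS (10.5% of all genes lowered), with 1 left without UA+DSS 2 or UA+DSS 3, and in DSS+UA against DSS Ackr1 (-1.51, adjusted p = 0.0363) and Ackr3 (-1.40, adjusted p = 0.00504) fell (5% of all genes lowered). In the latter Ackr1 passed in 10 of 20 alternatives and Ackr3 in 19, and the count was 0 without DSS+UA 3 and 1 without DSS 2, DSS+UA 1, DSS+UA 2 or any 1 of the UA+DSS libraries. Macrophage and monocyte markers, which include cells that carry Pf4, had 6 of 9 raised, 6 of 9 lowered and 1 of 9 lowered in the same comparisons. Endothelial markers had 2 of 5 raised, 3 of 5 lowered and 4 of 5 lowered, and fibroblast markers 5 of 6 raised, 4 of 6 lowered and 2 of 6 lowered. The part of these cells in the levels of Pf4, Ackr1 and Ackr3 was not tested.

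The cells that could bear CXCR3 were followed by 16 T cell and NK cell genes, of which 8 rose and 0 fell in DSS against Con, beside 13.9% raised and 12.6% lowered over all genes, with a median of 1.96. Cd2 (1.70, adjusted p = 0.0118), Trac (2.16, adjusted p = 0.0159), Cd4 (2.02, adjusted p = 0.0169) and Cd3e (2.35, adjusted p = 0.0248) passed. Cd8a (1.90, adjusted p = 0.0694), the cytotoxic granule gene Gzmb (2.36, adjusted p = 0.113) and Ncr1 (-0.38, adjusted p = 0.731) did not. DESeq2 called Cd8a (adjusted p = 0.0180) and Gzmb (adjusted p = 0.0274), and with edgeR Cd8a passed without DSS 3 (adjusted p = 0.0143). The count fell to 1 without Con 2 and to 2 without Con 1 or DSS 2, and rose to 10 without DSS 3. Cd2 alone of these 16 fell in UA+DSS against DSS (-1.65, adjusted p = 0.0199), with a list median of 0.04, and it no longer passed without DSS 1, DSS 2, UA+DSS 2 or UA+DSS 3. In DSS+UA against DSS 0 passed with edgeR, DESeq2 or limma-voom, and 0 had an unadjusted p under 0.05 with edgeR. Cxcr3, at 1.49 in DSS against Con, lay below the list median of 1.96.

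Genes with the profile most like each of the 7, by the root mean square difference of centred log2 CPM over the 12 libraries, came from different sets. For Cxcl9 these were Tgtp1 (0.520), Gm4841 (0.520) and Gbp2 (0.557), and for Cxcl10 Gbp2 (0.675), Cd274 (0.692) and Ddx25 (0.808). For Irf1 they were Casp4 (0.240), Nat8f4 (0.264) and Tap1 (0.285). Gbp2 and Tap1 belong to the target list above, and Tgtp1 encodes a T cell GTPase of the immunity-related family. For Cxcr3 they were Itgb7 (0.298), the gut-homing integrin chain of lymphocytes, Tmem229b (0.324) and BC147527 (0.335). For Ifngr1 they were Saraf (0.087), Tbc1d22a (0.099) and Leprotl1 (0.107), for Ifngr2 Bloc1s3 (0.188), Scp2-ps2 (0.190) and Taldo1 (0.197), and for Cxcl11 Gm34084 (0.415), Khk (0.430) and 4833407H14Rik (0.470). A measure over a steady gene is small by construction, so these values are not comparable between the 7 genes.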

How the data were processed

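Colon RNA of 12 C57BL/6 mice, 3 per group, was sequenced after a TruSeq library preparation. Groups and replicate numbers came from the sample titles. The labels name Trizol for the extraction and the methods the RNeasy kit. Reads were mapped to GRCm38 and counted with Hisat2, and Cuffdiff is also named in the submitters' processing notes. Versions, strand, annotation release and the handling of multimapping reads were not stated (not given in the sources used here). The deposited files hold whole-number read counts per Ensembl gene, without normalization by the authors. Symbols came from GENCODE M21 (54409 of 54532 genes). The 123 genes without a symbol, with 0.0297% of the counts, were tested and not named.

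edgeR 4.0.16 in R 4.3.3 (filterByExpr, TMM factors of 0.871 to 1.09, robust quasi-likelihood fit of all 12 libraries) was used with Benjamini-Hochberg adjustment over the 17658 genes and a threshold of 0.05. The prior count for log2 CPM was 2. Ifng and the Cxcl9 to Cxcl10 ratio were compared with exact permutation tests. Alternatives were DESeq2 1.42.0, limma-voom (limma 3.58.1), library size scaling, no filter, at least 10 counts in every sample, a fit of only the pair of groups, a block for the replicate number, the Hox position score as a covariate, 0.5 counts added for the ratio, and leaving out each library. Their use for the gene lists was chosen after seeing the data. The edgeR step was tested on simulated data.

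The 8 genes and the lists were chosen with earlier results of these data known. The named genes were the 8, the 3 of smallest p in DSS against Con in each pathway list, fixed regulators and lymphocyte markers (Jak1, Jak2, Socs1, Il12a, Il12b, Il18, Tbx21, Cd3e, Cd4, Cd8a, Ncr1, Gzmb), and the 3 nearest profiles of each tested gene. One gene of the signalling list counts in its totals and is not reported here. Other list genes that passed, and examples of list members, were named after their values were seen. Same-numbered libraries did not deviate together (correlations of -0.216 to 0.187 over 18 pairs), so the numbers were not taken as pairs. No 2 libraries of a group agreed within sampling noise.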

Additional observations from a re-analysis of the deposited data

Results flagged for a closer look

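Some marker genes differed between the UA groups in their change against DSS, by the edgeR test of DSS+UA against UA+DSS, in which the shared DSS libraries cancel. This test called 16.8% of all tested genes. The log2 difference, DSS+UA minus UA+DSS, was -2.17 for Myh11 (SE 0.50, adjusted p = 0.0178) and -1.79 for Des (SE 0.51, adjusted p = 0.0368), smooth muscle genes. It was 4.01 for the neutrophil receptor gene Cxcr2 (SE 1.21, adjusted p = 0.0458), and 2.12 for Cd79a (SE 0.64, adjusted p = 0.0453) and 2.23 for Cd79b (SE 0.67, adjusted p = 0.0448), B cell genes. For Cd2, carried by T cells and NK cells, it was 1.32 (SE 0.40, adjusted p = 0.0433). None of the 7 tested interferon gamma and CXCR3 axis genes differed by this test with edgeR, none had an unadjusted p under 0.05, and DESeq2 and limma-voom also called 0. All 12 type I interferon targets were lower in DSS+UA than in UA+DSS (median -2.33), and edgeR called 1 of them. Of the 12, 7 had an unadjusted p under 0.05 with edgeR (33.8% of all genes). The UA+DSS and DSS+UA groups also differ in the Hox position score, with no overlap.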

How the results depend on the processing

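The count of 0 called of the 7 genes moved to 1 in DSS against Con with DESeq2 (Cxcr3), with a range of 0 to 1 when 1 library was left out (1 without UA+DSS 3), and to 1 in UA+DSS against DSS with the replicate block (Ifngr2, log2 fold change 0.63, adjusted p = 0.0318). Same-numbered libraries had correlations of only -0.216 to 0.187 over 18 pairs, so no pairing was seen. Of the 12 libraries 5 correlated best with their own number, a count that was not tested. The cause of these changes was not tested. In the other 4 comparisons the count stayed at 0 under each alternative run.

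No fold change of the 7 genes passed the threshold in the main fits, and many changed sign. Leaving out each library gave these ranges of log2 fold change where the sign changed. In DSS against Con they were Ifngr1 -0.17 to 0.00532, Ifngr2 -0.18 to 0.14, Cxcl9 -0.36 to 0.54, Cxcl10 -0.0842 to 2.05, Cxcl11 -2.01 to 0.0788 and Ncr1 -0.77 to 0.14. In UA+DSS against DSS they were Cxcl9 -0.11 to 2.05 and Cxcl10 -1.86 to 0.54. In DSS+UA against DSS they were Ifngr1 -0.0742 to 0.41, Irf1 -0.20 to 1.13, Cxcl9 -0.39 to 2.31, Cxcl10 -1.38 to 1.31, Cxcl11 -1.08 to 1.44 and Cxcr3 -0.63 to 0.0386. In UA+DSS against Con they were Irf1 -0.31 to 0.19, Cxcl9 -0.0112 to 2.15 and Cxcl10 -0.34 to 0.90. In DSS+UA against Con they were Ifngr1 -0.11 to 0.33, Irf1 -0.65 to 0.45 and Cxcl9 -0.24 to 2.42. In DSS+UA against UA+DSS they were Ifngr1 -0.30 to 0.13, Ifngr2 -0.34 to 0.18, Irf1 -0.63 to 0.46, Cxcl9 -1.87 to 1.90 and Cxcl10 -0.26 to 1.56. The mean log2 Cxcl9 to Cxcl10 ratio ranged from -0.0758 to 0.83 in UA+DSS against Con and from -0.60 to 0.31 in DSS+UA against Con.

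Other settings that turned a sign were as follows. With library size scaling Ifngr2 in DSS against Con was 0.0600. With limma-voom Cxcl10 in DSS+UA against DSS was 0.0434, Irf1 in DSS+UA against Con -0.0978, and in DSS+UA against UA+DSS Irf1 -0.0511 and Cxcl9 -0.00642. With the replicate block Cxcl9 in DSS against Con was -0.39, Irf1 in UA+DSS against Con 0.0183, Irf1 in DSS+UA against Con -0.0520, and in DSS+UA against UA+DSS Irf1 -0.0703 and Cxcl9 -0.0216. Without the filter Irf1 in UA+DSS against Con was 0.00135. With the Hox position score Ifngr2 in DSS against Con was 0.0658, Ncr1 in DSS against Con 0.10, Cxcl10 0.52 in DSS+UA against DSS and -0.66 in UA+DSS against Con, and in DSS+UA against UA+DSS Ifngr1 0.0335 and Ifngr2 0.48. The cause was not tested.

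With 3 libraries a group and Ifng at 0 to 15 counts and Cxcl11 at 2 to 27 counts a library, changes of these genes below several fold were not detectable. The list calls in the UA comparisons also changed with the covariate: with the Hox score in the fit 0 genes of the 6 pathway and lymphocyte lists passed in UA+DSS against DSS, and 1 in DSS+UA against DSS.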
